A study of Mus musculus with 6 samples.

Results

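The genes described here are 10 markers of olfactory bulb and brain tissue: Eomes, Reln, Tbx21, Cdhr1, Gad1, Gad2, Slc32a1, Nrgn, Camk2a and Th. They were taken as every probe set whose gene symbol in the platform annotation is exactly one of these names, which gave 22 of 45037 probe sets on the array and 10 of 18193 named genes. RNA was measured in olfactory epithelium microdissected from 3 Harlequin males (Hq/Y, strain given as B6CBACAw-J/A-Pdcd8-Hq/J) and 3 wild-type male littermates (+/Y, strain given as B6CBACa). All mice were 6 months old, and each was profiled on 1 Affymetrix array. Harlequin is a mutation of Aifm1 (Pdcd8), the X-linked gene of the mitochondrial flavoprotein apoptosis-inducing factor. It lowers the gene in the whole animal, so nerve, bulb and epithelium all carry it, and the strain name in the labels differs between the groups in the same way as the genotype.

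The olfactory epithelium lies against the cribriform plate, and the axons of its sensory neurons pass through that bone to end in the glomeruli of the olfactory bulb. There they contact mitral and tufted cells, the output neurons of the bulb, which release glutamate, and periglomerular and granule cells, which release GABA and in part dopamine. Transcripts of those bulb neurons are not expected from sensory neurons, so they are commonly read as a measure of brain tissue in a nasal dissection. Several of the 10 genes also have sources outside the brain. Eomes and Tbx21 are expressed by natural killer and T cells, and Th by sympathetic nerve fibres.

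The arrays shared a trimmed mean of 500, and their median probe set signals ran from 107.9 to 119.7. The Aifm1 signal ran from 211.2 to 335.4 in Harlequin mice and from 1128.2 to 1255.6 in control mice, in the direction that the labels give. Omp, the classical marker of mature olfactory sensory neurons, ran from 15891.8 to 18821.7 in Harlequin mice and from 16391.9 to 17347.8 in control mice. Precision is limited by there being 3 arrays of each genotype. In whole tissue, fewer cells of a type and less RNA per cell cannot be told apart.

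Most probe sets of the bulb and brain genes gave dim signals in this tissue, although 6 of the 10 genes had a brighter one. A probe set is called dim here when its mean over the 6 arrays was at or below the 40th percentile of all probe sets, a signal of 63.83. Of the 22 probe sets, 15 were dim and 7 were above that level. The 7 belonged to 6 genes, namely Eomes with both of its probe sets and Reln, Cdhr1, Gad2, Nrgn and Camk2a with 1 each. The Gad2 probe set was only just above it, with a mean of 71.7 in Harlequin and 58.3 in control mice. Gad1, Slc32a1, Tbx21 and Th had no probe set above it. In 16 of the 22 probe sets every array read below 100.

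None of the 22 probe sets passed the test of Harlequin against control. The test was limma on log2(signal + 16) over all 45037 probe sets, with Benjamini-Hochberg adjustment and a threshold of 0.05, and all differences below are on that scale, which understates changes of dim genes. Over the whole array 6 probe sets passed, or 0.0133%. At an unadjusted p under 0.05 there were 4 of the 22 member probe sets in limma, against 5.04% of all probe sets. These 4 were a probe set each of Eomes and Camk2a, higher in Harlequin, and of Reln and Slc32a1, lower in Harlequin. The median difference over the 22 probe sets was 0.09 (0.02 without the brighter Gad2 probe set), with 14 higher (63.6%) and 8 lower. Over all 45037 probe sets the median was -0.01, with 47.9% higher. Since the genes were picked with earlier results of these data known, these counts describe them and are no test of the list.

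**Figure D1:**
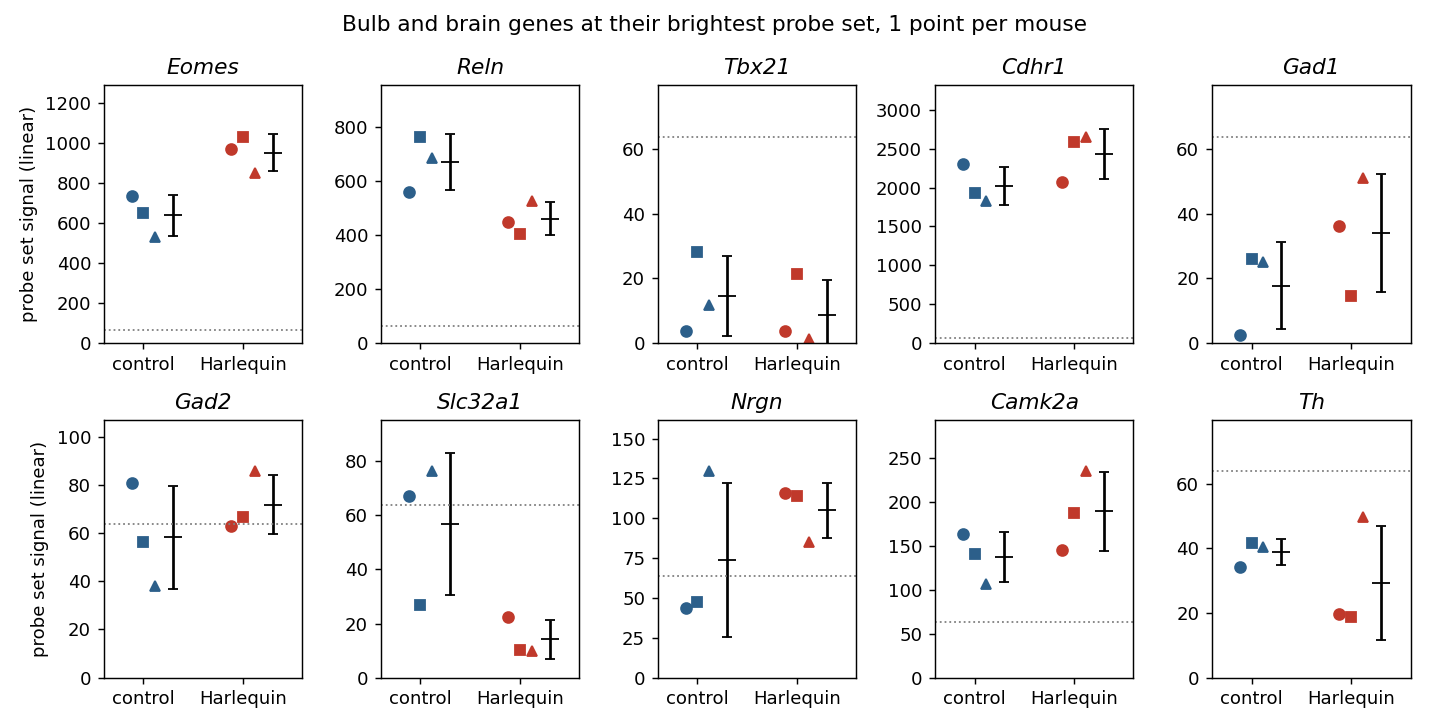
Signal of each gene at its brightest probe set on a linear axis, with 1 point per mouse (circle, square and triangle are replicates 1, 2 and 3), blue for control and red for Harlequin. The black bars are the mean and SD of 3 mice, cut at 0 where they run below it, and the dotted line is the 40th percentile signal of 63.83. Eomes, Reln and Cdhr1 lie well above the line, and Tbx21, Gad1 and Th lie below it in all 6 mice.

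Eomes (Tbr2), a T-box transcription factor of mitral and tufted cells and of their progenitors, had higher signal in Harlequin at both of its probe sets. At the brighter one, 1435172_at, the Harlequin mice gave 970.8, 1033.1 and 850.8 and the controls 735.9, 651.3 and 531.5. All 3 Harlequin values lay above all 3 control values. The difference was 0.57 (SE 0.14, 95% interval 0.24 to 0.89), with means of 951.6 ± 92.7 in Harlequin and 639.6 ± 103 in control mice (SD, n = 3). Its limma p was 0.00351 before and 0.846 after adjustment, so the difference did not pass, and leaving out 1 array moved it between 0.45 and 0.67. At the second probe set, 1426001_at, the Harlequin values were 628.8, 478.9 and 584.3 and the control values 502.9, 456.6 and 477.8. The genotypes overlapped there, because Harlequin replicate 2, the highest array at the first probe set, fell within the controls, and the difference was 0.22 (95% interval -0.09 to 0.53; 0.14 without Harlequin replicate 1).

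Tbx21, a T-box factor related to Eomes that marks mitral cells more narrowly and is better known as the T-bet of type 1 T cells and natural killer cells, was near the bottom of the array. Its only probe set gave 3.6, 21.2 and 1.3 in Harlequin and 3.8, 28.1 and 11.7 in controls. The genotypes overlapped in part, since 2 Harlequin mice read below the lowest control, and replicate 2 was the highest mouse in both. The difference was -0.31 with a 95% interval of -1.19 to 0.56, which is too wide to say whether Tbx21 was equal, lower or higher. It ran from -0.65 without Harlequin replicate 2 to -0.0087 without control replicate 2.

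Other markers of the lymphocytes that carry Eomes and Tbx21 were mostly dim, as Tbx21 was and Eomes was not. Of 15 listed T and natural killer cell genes 13 were measured here, and 3 of those were above the 40th percentile. Their summed signal ran from 348.9 to 463.3 in Harlequin mice and from 399.2 to 524.1 in control mice, and none was listed at 0. The T cell receptor component Cd3e gave 12.9 ± 1.84 in Harlequin and 15.2 ± 6.99 in controls. By count 2 of the 13 were higher and 11 lower in Harlequin, with a median of -0.04, and 0 passed the limma test. Of all 18193 genes at their brightest probe set, 48.5% were higher, 4.94% had an unadjusted p under 0.05 and 0.022% passed. The largest contribution upward came from the co-receptor Cd8a, at 112.5 ± 17.2 against 64.4 ± 30.6 (difference 0.73, limma unadjusted p = 0.0434, adjusted p = 0.972), while 4 further probe sets of Cd8a gave -0.39 to -0.03. The other genes with the smallest p in this list were the receptor Klrk1 (-0.76) and the protease Gzmb (-0.61).

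Reln, which encodes the secreted glycoprotein reelin and in the adult bulb is made by mitral cells, lay the opposite way at its bright probe set. That probe set, 1449465_at, gave 446.7, 404.2 and 525.6 in Harlequin and 558.1, 763.2 and 684.1 in controls. Every Harlequin mouse was below every control mouse, though Harlequin replicate 3 and control replicate 1 were close. The mean signal in Harlequin was 68.6% of the control mean, 458.8 ± 61.6 against 668.5 ± 103 (SD, n = 3). The log2 difference was -0.52 (SE 0.15, 95% interval -0.88 to -0.17), with a limma p of 0.00877 before and 0.915 after adjustment, and -0.65 to -0.42 with 1 array left out. The second Reln probe set, 1458020_at, was dim, at 34.2, 18.5 and 16.5 in Harlequin and 18.2, 14.8 and 14 in controls. Its difference had the other sign, 0.28 (95% interval -0.31 to 0.86).

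Genes that receive the reelin signal were looked at from a list of 3. The receptor Vldlr was at 883.2 ± 135 in Harlequin and 1043 ± 139 in controls (difference -0.24). Lrp8, the other reelin receptor, was at 303.4 ± 61.7 and 236.8 ± 13.7 (0.32), with no overlap between the genotypes, but 2 further probe sets of Lrp8 gave -0.04 and -0.02. The intracellular adaptor Dab1 was dim, at 50.1 ± 9.57 and 77.1 ± 14.3 (-0.49), with no overlap either, and its other 4 probe sets ranged from -0.55 to 0.55. The other 5 probe sets of Vldlr ranged from -0.21 to 0.33. None of the 3 passed the limma test or had an unadjusted p under 0.05. No direction was thus shared by the reelin receptors or by the probe sets within each of these genes.

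Cdhr1 (protocadherin 21), a cadherin-related protein of mitral and tufted cells and of photoreceptors, was measured by 1 probe set well above the dim range. Harlequin mice gave 2070.6, 2583 and 2658.9 and controls 2301.1, 1926.2 and 1830.5. Harlequin replicate 1 lay between the controls, so the genotypes overlapped. The means were 2438 ± 320 and 2019 ± 249 (SD, n = 3). The difference was 0.27 with an interval, at 95%, of -0.02 to 0.56, and its limma adjusted p was 0.972 (0.0677 unadjusted). Leaving out 1 array gave 0.20 to 0.38.

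The 3 well-measured genes of mitral and tufted cells did not share an order of arrays. Harlequin replicate 2 was the highest array for Eomes at its brighter probe set and the lowest for Reln. Harlequin replicate 3 was the highest for Cdhr1 and the highest of the Harlequin mice for Reln, but the lowest of them for Eomes. Control replicates 2 and 3 were the lowest for Eomes and Cdhr1 and the highest for Reln. Since Eomes and Reln separated the genotypes in opposite directions, no array could be the highest, or the lowest, for all 3 genes. Among the controls alone, Eomes and Cdhr1 ranked the replicates in the same order, but not among the Harlequin mice.

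Other genes of mitral and tufted cells were mixed in level and showed no shared direction. Of 7 listed genes, all measured here, 3 were above the 40th percentile. Tbr1, a T-box factor of these and other glutamate neurons, was dim at 26.5 ± 8.52 in Harlequin and 23.5 ± 11.9 in controls. The vesicular glutamate transporter of forebrain neurons, Slc17a7, was dim at 26.1 ± 13.4 and 35.1 ± 25.9. Its relative Slc17a6, the glutamate transporter that olfactory sensory neurons use themselves, was at 4798 ± 167 and 4655 ± 577 (difference 0.05). The neuropeptide gene Cck was lower in all 3 Harlequin mice, at 121.7 ± 38.0 against 221.5 ± 58.0 (difference -0.80, limma unadjusted p = 0.0206, adjusted p = 0.972). Lhx5, a LIM homeobox factor, differed by 0.46 at a dim probe set. The list median was -0.0001, with 3 higher and 4 lower and 0 passing, and its summed signal ran from 4941.2 to 5224.3 in Harlequin mice and from 4448 to 5475.9 in control mice. Nearly all of that sum is Slc17a6, and without it the other 6 genes summed to between 247.9 and 382.8 in Harlequin mice and between 317.8 and 457.5 in control mice.

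**Figure D2:**
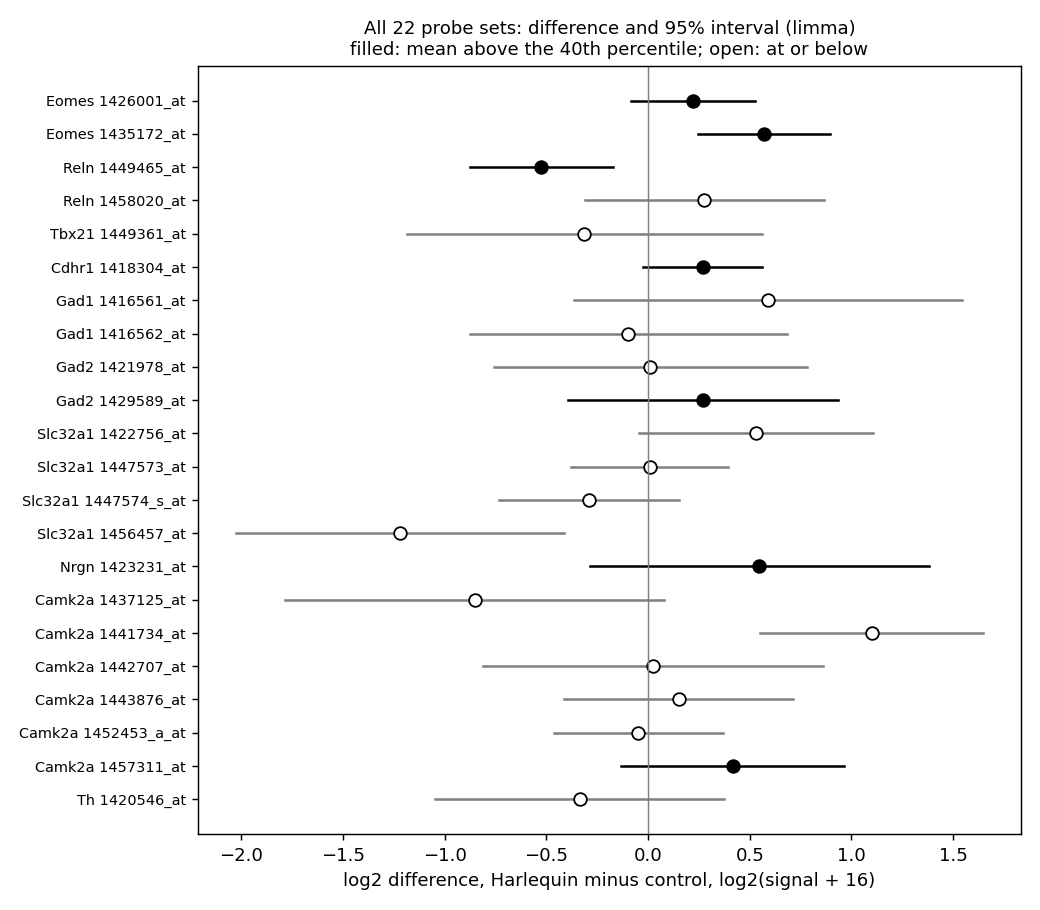
Log2 difference of Harlequin minus control for the 22 probe sets, with limma 95% intervals from 3 arrays against 3. Filled points are probe sets with a mean above the 40th percentile and open points are dim ones. The intervals leave out 0 for 4 probe sets, of which Eomes and Camk2a lie above it and Reln and Slc32a1 below it, and none of the 22 passed after adjustment.

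The 3 genes of GABA synthesis and packaging, which mark granule and periglomerular cells, were dim at 7 of their 8 probe sets. Gad1, the glutamate decarboxylase GAD67, gave 36.3, 14.6 and 51 in Harlequin and 2.3, 25.8 and 25.1 in controls at its brighter probe set. The values overlapped, and the difference of 0.59 had a 95% interval of -0.36 to 1.54. It was 0.20 without control replicate 1 and 0.91 without Harlequin replicate 2. Its other probe set read 4.4 to 25.8 in Harlequin and 7.3 to 24.7 in controls, with a difference of -0.10. Gad2, the decarboxylase GAD65 of nerve terminals, was just above the 40th percentile at 1 probe set, with 62.9, 66.6 and 85.6 in Harlequin and 80.6, 56.2 and 38 in controls. The genotypes overlapped there and at the dimmer Gad2 probe set, and the differences were 0.27 (95% interval -0.39 to 0.93) and 0.01 (-0.76 to 0.78). The first of these was 0.062 without control replicate 3 and 0.48 without control replicate 1.

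Slc32a1, the vesicular GABA transporter, was dim at all 4 of its probe sets, and these went in different directions. At the brightest, 1456457_at, Harlequin mice gave 22.5, 10.1 and 10 and controls 67.3, 27 and 76.3. All Harlequin values lay below the controls, and only control replicates 1 and 3 exceeded the 40th percentile signal. The difference was -1.22 (SE 0.35, 95% interval -2.03 to -0.41). Its limma adjusted p was 0.915 (0.00796 unadjusted), and the difference was -1.90 with a pseudocount of 1 and -0.61 with 64. At 1447574_s_at the Harlequin values, 7.5, 5.8 and 6.2, were also below the control values of 10.5, 12.2 and 11.8. At 1422756_at the order was turned, with 8.7, 24.2 and 8 in Harlequin above 4, 4.2 and 3.6 in controls (difference 0.53, 95% interval -0.04 to 1.10; 0.29 without Harlequin replicate 2). The fourth probe set read between 2.2 and 3 on all 6 arrays.

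Other GABA genes and interneuron markers were compared as lists. Of 9 GABA genes 5 were measured here, with 1 higher, 4 lower and 0 passing (median -0.09). The GABA transaminase Abat was lower in all 3 Harlequin mice, at 224.2 ± 19.5 against 304.9 ± 37.9 (difference -0.41, limma unadjusted p = 0.03, adjusted p = 0.972), and its dim second probe set differed by 0.08. Aldh5a1, which completes GABA breakdown, differed by -0.19 and the receptor subunit Gabrb2 by 0.19, with -0.35 to 0.46 at its 4 dimmer probe sets. Of 18 listed interneuron genes 16 were measured here and 11 were above the 40th percentile, with 6 higher, 10 lower and 0 passing (median -0.05). The zinc finger factor Sp8 (-0.26) and the homeobox factor Meis2 (-0.26) were lower in all 3 Harlequin mice and the opioid precursor Penk (0.42) was higher in all 3. The brightest of this list, the calcium-binding Calb2, is also made by sensory neurons and was at 5641 ± 635 and 4795 ± 631. Which cells gave the other signals above the 40th percentile was not tested, so that count does not measure bulb interneurons.

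Th, tyrosine hydroxylase, makes the dopamine of periglomerular cells and the noradrenaline of sympathetic fibres. Its single probe set was dim, at 19.7, 18.7 and 49.6 in Harlequin and 34.2, 41.7 and 40.4 in controls. Harlequin replicate 3 was the highest of the 6 arrays and the other Harlequin mice the lowest. The difference was -0.34 with a 95% interval of -1.05 to 0.38, and ran from -0.64 without Harlequin replicate 3 to -0.18 without Harlequin replicate 2. Dbh, the enzyme that marks noradrenergic fibres, was at 77.2 ± 48.8 in Harlequin and 82.3 ± 7.11 in controls (difference -0.20; -1.10 and -0.03 at its dim probe sets). The dopamine transporter Slc6a3 was dim and lower in all 3 Harlequin mice, at 9.57 ± 6.92 against 41.7 ± 16.4 (difference -1.17, limma unadjusted p = 0.00514, adjusted p = 0.862). Next by p in that list of 8 were the vesicular transporter Slc18a2 (0.38) and Gch1 (0.37), an enzyme of cofactor synthesis. A second Gch1 probe set, above the 40th percentile like the first, differed by -0.003. The list split into 4 higher and 4 lower with 0 passing.

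Nrgn, neurogranin, is a calmodulin-binding protein of dendrites in forebrain neurons. It gave 115.7, 114 and 85.1 in Harlequin and 43.8, 47.7 and 129.5 in controls. Control replicate 3 was the highest of all arrays while the other 2 controls were the lowest, so the groups overlapped. The difference was 0.55 (95% interval -0.29 to 1.38) and moved between 0.32 and 0.96 with 1 array left out, reaching 0.96 without control replicate 3.

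Camk2a, the alpha subunit of calcium/calmodulin-dependent kinase II of forebrain synapses, had 6 probe sets, of which 1 was above the 40th percentile. That one, 1457311_at, gave 145.2, 187.8 and 234.9 in Harlequin and 163.5, 141.3 and 106.7 in controls. Harlequin replicate 1 lay among the controls, and the difference was 0.42 (95% interval -0.13 to 0.96; 0.26 without Harlequin replicate 3). The dim probe set 1441734_at had the smallest p of the 22, with 44.6, 47.3 and 33.1 in Harlequin and 8.3, 13.3 and 10.9 in controls. The genotypes did not overlap there, and the difference was 1.10 (SE 0.24, 95% interval 0.55 to 1.65). Its limma adjusted p was 0.766 (0.00158 unadjusted), and the difference was 1.86 with a pseudocount of 1 and 0.50 with 64. Another dim probe set, 1437125_at, lay the opposite way, at 12.8, 19.2 and 4.6 in Harlequin and 38.9, 64.3 and 11.9 in controls (difference -0.85). The remaining 3 differed by 0.02, 0.15 and -0.05. A single direction for Camk2a is therefore not given by its probe sets.

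**Figure D3:**
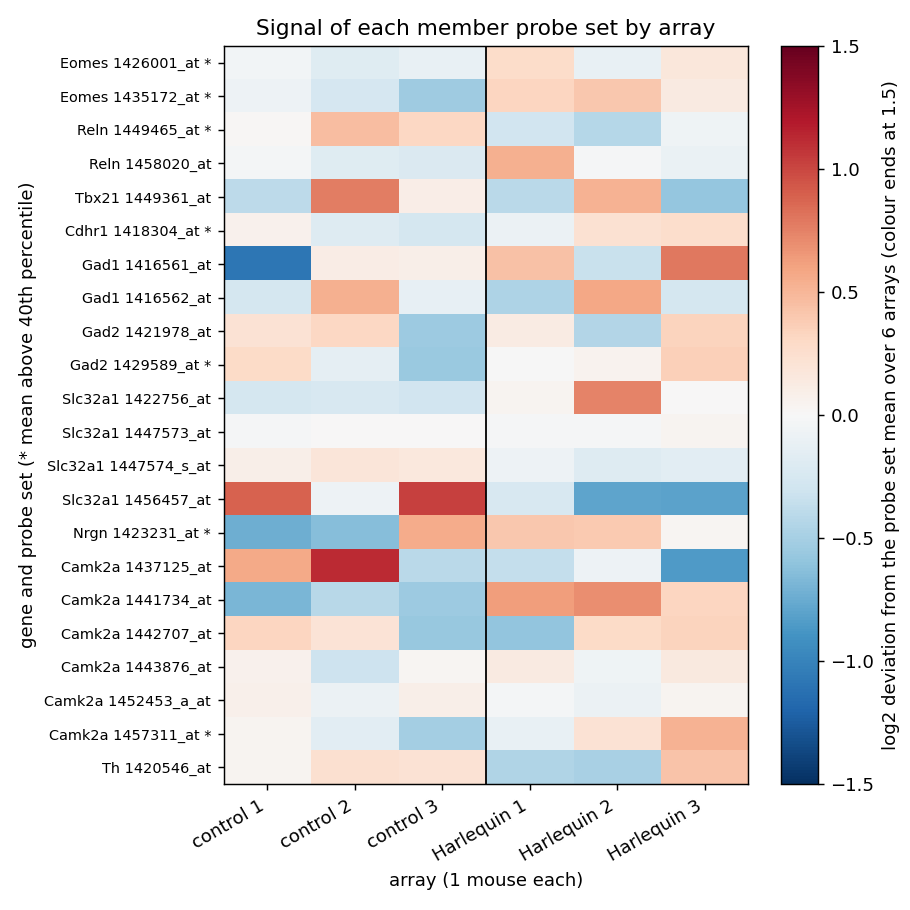
Log2 deviation of each of the 22 probe sets from its mean over the 6 arrays, by array (columns) with a line between controls and Harlequin; red is above and blue below the mean. Rows marked with a star have a mean above the 40th percentile. Probe sets of 1 gene differ in the direction of their genotype difference for Reln, Gad1, Slc32a1 and Camk2a, and no column is red or blue throughout.

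Counted over the 22 probe sets, 6 (27.3%) separated the genotypes without overlap, 3 higher and 3 lower in Harlequin, where 9.96% of all probe sets did so (4.37% higher and 5.58% lower). Of the 6, 4 were dim, and 3 of those 4 belonged to Slc32a1 in opposing directions. The 2 above the 40th percentile were the bright probe sets of Eomes and Reln, which also had opposite signs. Harlequin replicate 3 was the highest array for 9 of the 22 probe sets and control replicate 3 the lowest for 7. Of the 7 probe sets above the 40th percentile, these counts were 3 and 4. The same counts over all probe sets were not made, so these do not mark out either array.

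Genes of forebrain neurons and of central glia were compared as a wider measure of brain tissue. Of 14 forebrain and postsynaptic genes 11 were measured here and 4 of those were above the 40th percentile, with 5 higher, 6 lower and 0 passing (median -0.16). Their sum of signals lay between 1294.8 and 1706.2 in Harlequin mice and between 1459.7 and 1584.9 in control mice. The neuronal splicing factor Rbfox3 was lower in all 3 Harlequin mice at a dim probe set, 33.4 ± 6.97 against 80.6 ± 22.5 (difference -0.95, limma unadjusted p = 0.0077, adjusted p = 0.915), while 2 further probe sets, also dim, gave 0.22 and 0.13. The synaptic scaffold gene Homer1 differed by -0.26, and Neurod6, a factor of forebrain glutamate neurons, by 0.41 at values under 15 in every mouse. All 13 central glia genes were measured here, 10 of them above the 40th percentile, with 5 higher, 8 lower and 0 passing (median -0.09), and they summed to between 13750.7 and 16568.5 in Harlequin mice and between 13706.2 and 16138.3 in control mice. The astrocyte filament gene Gfap was at 73.1 ± 14.6 in Harlequin and 73.3 ± 20.8 in controls, and its 2 dim probe sets differed by -0.48 and -0.26. The water channel Aqp4, which nasal gland and supporting cells also make, was at 10630 ± 1491 and 10589 ± 1641. Its other probe sets, also above the 40th percentile, differed by 0.22 and 0.32. Aqp4 made up most of the glia sum on every array, so that sum does not measure brain tissue alone. Which cells gave the other glia list signals above the 40th percentile was not tested, so the count of 10 does not measure central glia. Mog, a protein of central myelin alone, was at 4.73 ± 4.40 and 10.4 ± 12.5, and Mag, present in central and peripheral myelin, at 112.9 ± 8.42 and 161.0 ± 27.4. The smallest p of this list belonged to Mag (difference -0.45), followed by Opalin (-0.60) and Olig1 (0.21).

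By contrast with the brain lists, the epithelial list held only bright genes. Of 11 listed genes 10 were measured here, all above the 40th percentile, with a sum between 89647.5 and 90201.7 in Harlequin mice and between 85407.8 and 92508.9 in control mice. Their median difference was 0.009, with 7 higher, 3 lower and 0 passing, and 0 of them had an unadjusted p under 0.05 in limma. The 3 with the smallest p were the keratin Krt14 (0.24, with 0.33 and -0.20 at its dimmer probe sets), the cilia factor Foxj1 (-0.14) and the cytochrome Cyp1a2 (-0.05). The dissected tissue thus carried the epithelial markers on all 6 arrays, with overlapping sums. Whether brain tissue had a part in the differences of Eomes, Reln or Cdhr1 was not tested.

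**Figure D4:**
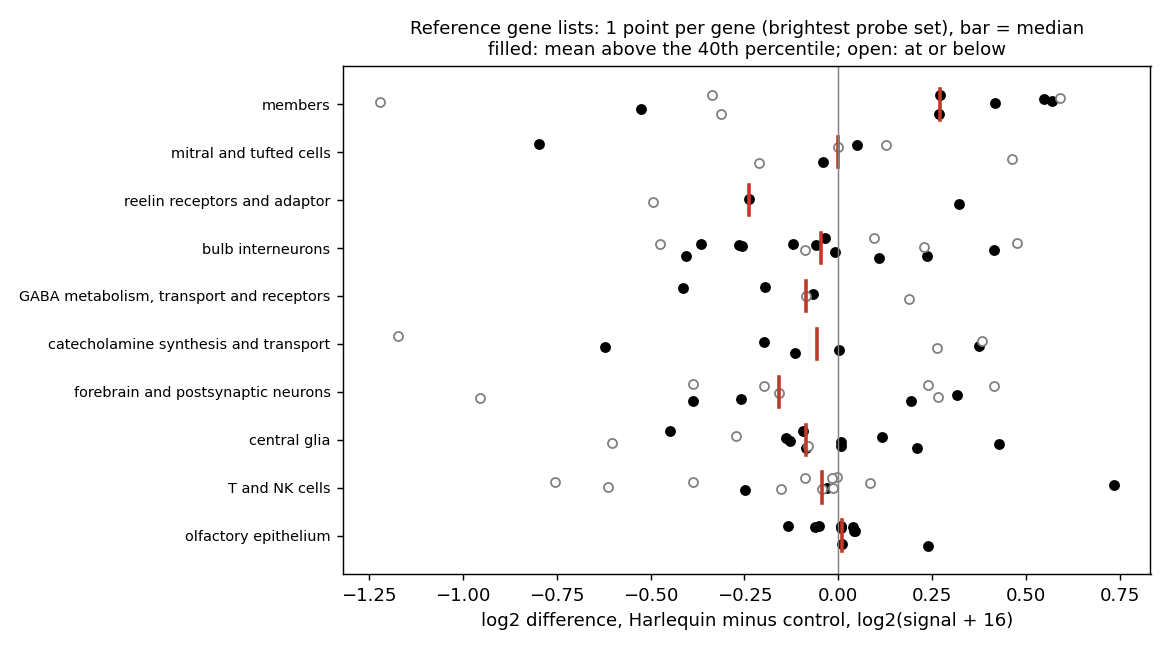
Log2 difference of Harlequin minus control for the 10 genes and the reference lists, 1 point per gene at its brightest probe set, with the list median as a red bar. Filled points are genes above the 40th percentile and open points are dim; height within a row has no meaning. The 10 genes spread from -1.22 to 0.59 with a median of 0.27 at these probe sets (0.09 over all 22), and the medians of the reference lists lie between -0.24 and 0.009.

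The genes whose values followed those of the members most closely over the 6 arrays were found by the mean absolute difference of log2 deviations, among 23586 probe sets naming 1 other gene above the 40th percentile. For Eomes these were the transcriptional coregulator Zmiz1 (0.052) and the ciliary transport gene Wdr19 (0.059). For Reln they were the methyltransferase Mettl9 (0.045) and the mitochondrial dehydrogenase Dhtkd1 (0.046). For Cdhr1 they were the membrane fusion gene Napa (0.026) and the protease Bace1 (0.027). These likenesses describe 6 arrays and carry no test.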

How the data were processed

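The authors deposited intensities on a linear scale for 45101 probe sets per array, with 1 decimal and running from 0.1 to 31786.1. From the values, each array was scaled by a single factor to the same mean after the lowest and highest 2% were left out. The software that condensed probe cells is not given in the sources used here, and detection calls were not used. Per the labels' protocols, labelling began with 3 µg of total RNA per mouse.

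The 64 control probe sets were left out, and the other 45037 were tested without a filter on log2(value + 16) with limma 3.58.1 (R 4.3.3), using a variance prior that follows intensity, 3 arrays against 3, two-sided. Gene names came from the platform annotation, updated by gene identifier with a RefSeq table of GRCm38.p6. Reference genes were read at their brightest probe set, and 86 of 98 listed genes were found. Named were all members, up to 3 genes of each list with the smallest p and a few conventional markers (Tbr1, Slc17a7, Gfap, Aqp4, Dbh, Cd3e, Omp). Slc17a6, Calb2 and Mog were named after their values were seen. The members and lists were chosen with earlier results of these data known. Replicate numbers were taken from the titles. The test was checked on simulated data with added changes larger than most differences reported here. That check does not show how often smaller differences are found. Tables were made with Python 3.11.15 and pandas 2.3.3, and figures with matplotlib 3.10.9.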

Additional observations from a re-analysis of the deposited data

How the results depend on the processing

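None of the member probe sets passed under any of 18 alternatives in limma (lowest adjusted p 0.339, for Camk2a), and 18 of the 22 kept their sign in each alternative that included them. The filters and the fit with 1 probe set per gene left the dim ones out. Differences of dim probe sets depend on the pseudocount, as given above for Slc32a1 and Camk2a, and that of Tbx21 was -0.97 with a pseudocount of 1 and -0.11 with 64. With array weights the dimmer Gad2 probe set and 1 of Camk2a changed sign, to -0.092 and -0.014. With 1 array left out the range was -0.26 to 0.23 for that Gad2 probe set, -0.25 to 0.33 for that of Camk2a, -0.41 to 0.15 for the dimmer Gad1 probe set and -0.010 to 0.017 for the dimmest of Slc32a1. The member median of 0.09 became 0.27 above the 40th percentile, 0.24 above the 60th and 0.34 with 1 bright probe set per gene, and 0.038 (without control replicate 3) to 0.22 (without Harlequin replicate 2) with 1 array left out. The brighter Gad2 probe set is above the 40th percentile through its Harlequin values, so the filtered medians support no direction. Without it, a setting chosen after seeing the data, they were 0.34 above the 40th percentile and 0.42 with 1 probe set per gene. Those medians still hold Nrgn, for which control replicates 1 and 2 read below the 40th percentile signal. Over all probe sets 0 passed in limma without an intensity trend (2321 at an unadjusted p under 0.05) or with the replicate block (2161), and 0 to 8 with 1 array left out, 0 being without control replicate 1 (2492) or 3 (2431). Same-numbered arrays did not deviate together (correlations -0.17, 0.0009 and 0.10, against -0.25 to 0.28 for arrays of different numbers), so the numbers were not taken as pairs. Any other grouping of the mice was not tested. Dim signals limit what can be said of Gad1, Slc32a1, Tbx21 and Th.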
